A study of Danio rerio with 6 samples.

Results

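Transcripts of the translation initiation factors (eIF1 to eIF6) and of the elongation factors eEF1 and eEF2 were compared between RNA recovered with Tdrd6a and input RNA of zebrafish zygotes. The genes were taken by symbol from the deposited table: 75 rows carried a name beginning with eif or eef and a digit, with the Argonaute genes once named eif2c and the transport factor gene eif4enif1 left out. Of these rows, 65 had a mean of at least 10 normalized counts over the 6 libraries and are the members described here, of 13265 genes tested among 21051 in the table. There were 3 libraries of RNA immunoprecipitated with Tdrd6a (IP), a germ plasm protein with Tudor domains, and 3 libraries of input RNA. Zebrafish zygotes are the labelled source of both groups, although ovary is mentioned in the series' design, and the labels give no strain, genotype or age. Whether replicates are separate clutches is not labelled, so the tests reflect library-to-library spread that could be technical. A control precipitation without the Tdrd6a antibody was not analysed here.

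Initiation begins when eIF2, bound to GTP, brings the initiator tRNA to the small ribosomal subunit together with eIF1, eIF1A, eIF3 and eIF5. The cap of the mRNA is bound by eIF4E, which with the scaffold eIF4G and the helicase eIF4A recruits the ribosome, and eIF5B joins the large subunit. Elongation depends on eEF1A, which delivers aminoacyl-tRNA, and on eEF2, which moves the ribosome along. A zygote translates stored maternal mRNA, and its germ plasm holds the maternal mRNAs that are passed to primordial germ cells.

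Depth ranged from 4031863 to 22466764 reads in the IP libraries and from 10481205 to 19804774 in the input libraries. IP replicate 2 was the shallowest, with 1 read worth 3.76 normalized counts. All 10 germ plasm transcripts tested were called higher in IP, against 4.46% of all genes tested. This list was chosen with earlier results of these data known, so its enrichment is not independent support. Their median enrichment over the input mean was 47.7-fold, 113-fold and 17.9-fold in IP replicates 1, 2 and 3. The cause of this spread was not tested. Of 5 egg transcripts tested 0 were called, with estimates from -0.55 for buc to 0.69 for zp3b and a median of 0.04. Of 6 markers of muscle, blood and follicle cells, 3 were matched: acta1b did not exceed 10.1 normalized counts, cyp19a1a was at 0 in all 6 libraries, and gsdf was at 13.2 to 26.3 in IP and 8.8 to 38.1 in input. In bulk libraries, fewer molecules of one transcript and more of the others cannot be told apart.

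Translation factor transcripts were mostly a little lower in IP than in input, and few of them passed the threshold of the main fit, which did not pair the libraries. The members' median log2 fold change, IP over input, was -0.42, against -0.01 over all genes tested, and 44 of the 65 estimates lay below 0 (67.7%, against 50.4% of all genes tested). At an adjusted p under 0.05 (limma on log2 of the normalized count plus 4), 2 members rose, eif6 and eif4a3, and 3 fell, eif4h, eif5a2 and eef1a1l1, while 60 were not called. The 2 higher calls made 3.08% of the members, against 4.46% of all genes tested, and the 3 lower calls made 4.62%, against 1.86%. At an unadjusted p under 0.05 (same limma fit) there were 4 of 65 members higher and 15 lower, against 1620 higher and 1194 lower of the 13265 genes tested. With replicate number as a block, 2 members were higher and 8 lower, against a background of 6.97% and 3.52%: the lower calls added eef1da, eif2ak1, eif2s2, eif3jb and eif4ebp3l. On recovered whole reads, edgeR called 2 members higher and 4 lower (background 4.43% and 1.91%), and DESeq2 called 3 higher and 9 lower (background 8.04% and 4.26%). The largest estimate among the members, that of eef2a.2, was a log2 fold change of 1.58, against 4.61 for celf1, the lowest of the germ plasm transcripts.

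**Figure D1:**
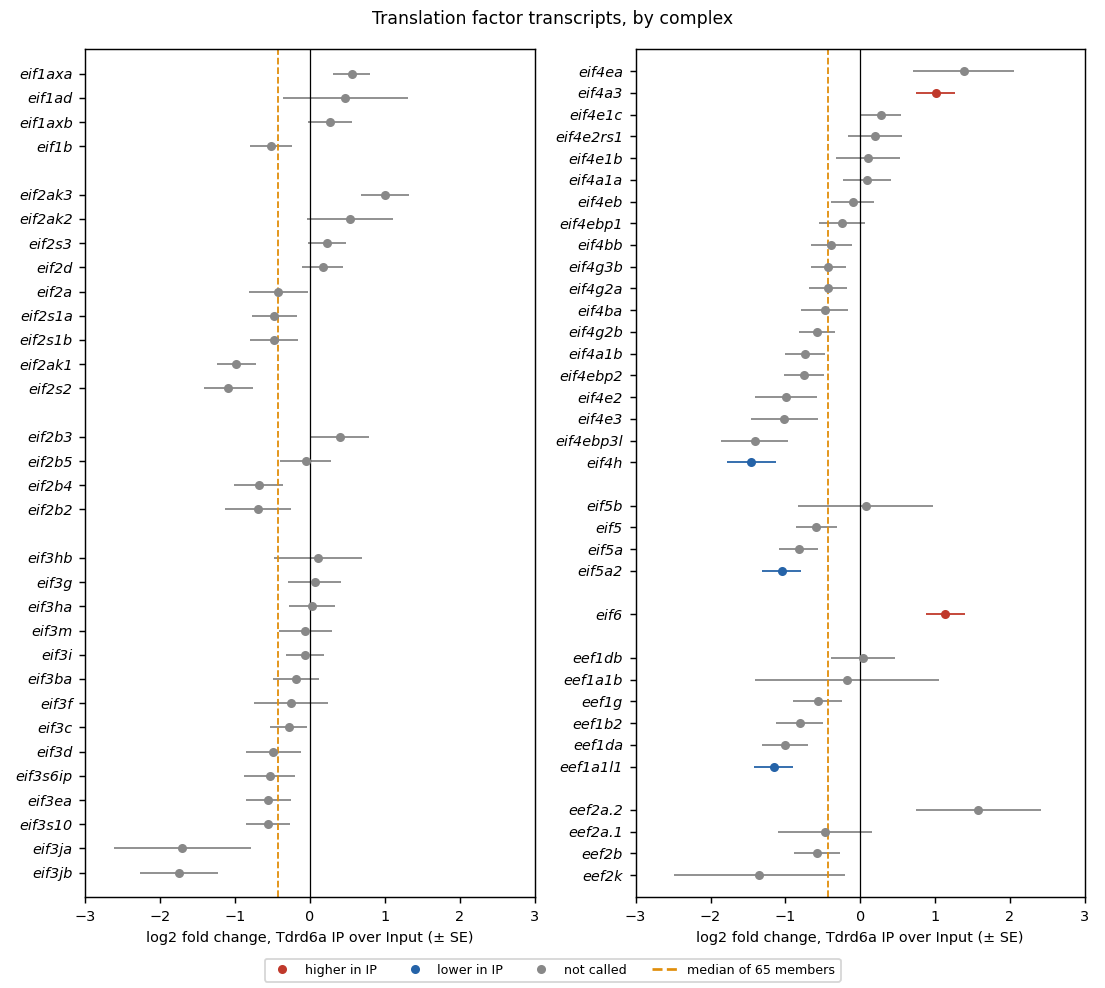
Log2 fold change, IP over input, with its standard error for each of the 65 translation factor transcripts, ordered within each complex, on a scale where 1 unit is a doubling. Red and blue points are the 2 transcripts called higher and the 3 called lower, grey points were not called, and the dashed line is the members' median of -0.42.

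The groups separated more often on the lower side. All 3 IP libraries lay below all 3 input libraries for 20 members (30.8%, against 12.9% of all genes tested), and above them for 5 members (7.69%, against 14.6%). Libraries of the same replicate number deviated together, so the difference was also read within each same-numbered pair. The IP library was the lower one in all 3 pairs for 28 members (43.1%, against 22.7% of all genes tested) and the higher one in all 3 pairs for 8 members (12.3%, against 23.6%). The pairs were unequal: 52 members were lower in pair 1, 33 in pair 2 and 45 in pair 3, with median differences of -0.60, -0.02 and -0.35 on the log2 scale, against 0.02, 0.00 and 0.01 over all genes tested. Pair 2 holds the shallowest IP library, and the part of depth in this was not tested.

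**Figure D2:**
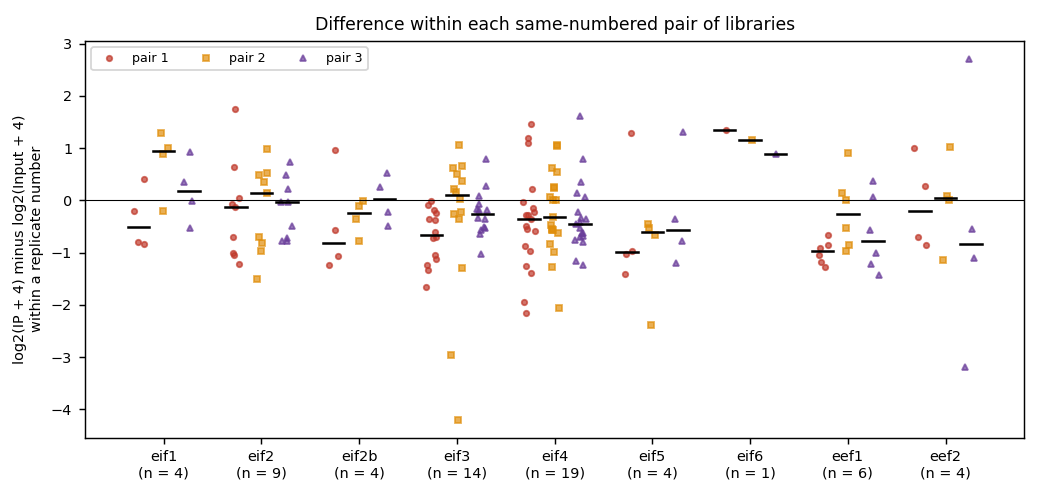
Difference in log2(normalized count + 4) between the IP and the input library of the same replicate number, by complex, with 1 point per transcript and a bar at the median. Members of eif3 and eef1 lie mostly below 0 in pairs 1 and 3 and on both sides of 0 in pair 2, while the point of eif6 is above 0 in all 3 pairs.

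As a share of all reads, the members took 0.545 ± 0.0935% (SD, n = 3) in IP, where libraries ranged from 0.484 to 0.653%, and 0.771 ± 0.0120% in input, where they ranged from 0.757 to 0.778%. The groups did not overlap, and the two-sided exact permutation p was 0.1, the smallest that 3 unpaired libraries against 3 allow. All exact permutation p values here, for shares and for ratios, ignored the pairing by replicate number. Shares depend on the rest of each library. With scaling by library size only, the median log2 fold change of all genes tested was itself -0.18. Without the gene that gave the most input reads, the members' share was 0.552 ± 0.0982% in IP and 0.889 ± 0.0373% in input. The share of eEF1 transcripts was 0.0744 ± 0.0163% in IP and 0.165 ± 0.0224% in input (exact permutation p = 0.1), and that of eIF3 transcripts was 0.0631 ± 0.0156% in IP and 0.0915 ± 0.00274% in input (exact permutation p = 0.1). The eIF4 group (0.156% in IP, 0.220% in input) and the eEF2 group (0.051% and 0.084%) were also lower without overlap. The share of eif6 was higher without overlap (0.0052% in IP, 0.0027% in input), and those of the eIF1, eIF2B and eIF5 groups overlapped. The share of the eIF2 group, which here includes 3 kinase genes, overlapped between IP and input. It was 0.0959 ± 0.0257% in IP and 0.0818 ± 0.00433% in input (exact permutation p = 0.4). The kinase gene eif2ak3 gave the most reads in this group and had a log2 fold change of 1.01. The 4 genes of eIF2 subunits had a median log2 fold change of -0.48, with 3 estimates below 0 and 1 above.

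The eIF1 group sets the start codon during scanning. Its members were eif1axa and eif1axb, which encode eIF1A, eif1b and the related gene eif1ad, and 0 of the 4 were called. The transcript of eif1axa (ENSDARG00000029003) was at 2861, 3654 and 2656 normalized counts in IP and at 2149, 1961 and 2071 in input. Every IP library was above every input library, and the log2 fold change was 0.56 ± 0.25 (SE; adjusted p = 0.232), so it was not called. The transcript of eif1b was at 951, 1714 and 1466 in IP and 1688, 1986 and 2114 in input, overlapping ranges with an estimate of -0.52 ± 0.29 (adjusted p = 0.333). Levels of eif1axb overlapped too, at 691 to 1034 in IP and 510 to 712 in input, and eif1ad was scarce, at 7.5 to 21.7 and 0.7 to 22.4.

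The eIF2 complex carries the initiator tRNA and has an alpha, a beta and a gamma subunit. The transcript of eif2s2 (ENSDARG00000053047), which encodes the beta subunit, was at 412, 244 and 534 normalized counts in IP and at 828, 697 and 923 in input. All IP libraries were below all input libraries, with an estimate of -1.09 ± 0.33 that missed the threshold (adjusted p = 0.0759) and passed it with the replicate block (adjusted p = 0.0299). The alpha subunit genes eif2s1a (549 to 1038 in IP, 878 to 1132 in input) and eif2s1b (263 to 444 and 430 to 660) and the gamma subunit gene eif2s3 (1059 to 1244 and 875 to 1126) overlapped between the groups. So did eif2a (127 to 165 in IP, 117 to 266 in input) and eif2d (444 to 472 and 345 to 481), which encode separate factors that can deliver initiator tRNA.

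Kinases that phosphorylate eIF2 alpha, and so lower initiation under stress, lay on opposite sides of input. The transcript of eif2ak3 (ENSDARG00000062139), which encodes the endoplasmic reticulum stress kinase PERK, was at 13439, 6057 and 8103 normalized counts in IP and at 4002, 4193 and 4837 in input. That of eif2ak1 (ENSDARG00000093182), which encodes the heme-regulated kinase HRI, was at 825, 733 and 1030 in IP and at 1916, 1431 and 1777 in input. Neither pair of ranges overlapped, in opposite directions, and neither gene was called: the log2 fold change was 1.01 ± 0.32 for eif2ak3 (adjusted p = 0.092) and -0.99 ± 0.26 for eif2ak1 (adjusted p = 0.051). With the replicate block eif2ak1 was called lower (adjusted p = 0.0384), as were 3.52% of all genes tested, and eif2ak3 was not called (adjusted p = 0.0855). Without IP replicate 2 both were called, eif2ak3 at 1.27 (adjusted p = 0.0074) and eif2ak1 at -0.88 (adjusted p = 0.034). In that fit 8.93% of all genes tested were called higher and 4.12% lower. The log2 ratio of eif2ak3 to eif2ak1 within a library was 4.02, 3.04 and 2.97 in IP and 1.06, 1.55 and 1.44 in input, a mean difference of 1.99 without overlap (two-sided exact permutation p = 0.1, or 0.25 adjusted over the 15 pairs of related genes compared in this way). The lack of overlap in the ratio follows from the opposite separations of these genes and is not further evidence. The third kinase gene, eif2ak2 (PKR), was at 63.2, 218 and 70.0 in IP and 39.2, 108 and 71.6 in input.

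The eIF2B complex, which recharges eIF2 with GTP, had 0 of 4 members called. The transcript of its catalytic subunit gene eif2b5 was at 315 to 462 normalized counts in IP and 258 to 501 in input. That of eif2b4 was at 238, 410 and 369 in IP and 502, 704 and 431 in input, every IP library below every input library (-0.69 ± 0.33, adjusted p = 0.259). The estimates of eif2b2 (-0.69 ± 0.44, adjusted p = 0.415) and eif2b3 (0.40 ± 0.39, adjusted p = 0.616) came from overlapping groups. Both rows named eif2b1 lay below the abundance minimum.

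The eIF3 complex, the largest of the initiation factors and the scaffold of the small subunit, gave 14 members and 0 calls. Their median log2 fold change was -0.27, with 11 of 14 estimates below 0, against 50.4% of all genes tested. All 14 were lower in pair 1, 6 in pair 2 and 11 in pair 3. Of the 13265 genes tested, 6484, 6629 and 6504 were lower in pairs 1, 2 and 3. The transcript of eif3i was at 1705, 1993 and 1901 normalized counts in IP and 1725, 1788 and 2399 in input, so that the ranges overlapped. The ranges also overlapped for eif3g (150 to 236 in IP, 151 to 248 in input), eif3ha (456 to 854 and 511 to 602), eif3m (343 to 696 and 329 to 568), eif3ba (298 to 538 and 396 to 460) and eif3f (62.7 to 94.0 and 58.6 to 172). For eif3d, 1 IP library reached the input range, at 136, 248 and 321 in IP and 286, 317 and 339 in input. The highest estimate of the complex was that of the scarce eif3hb, at 22.9, 56.4 and 36.2 in IP and 54.9, 34.5 and 19.1 in input (0.11 ± 0.59, adjusted p = 0.946), whose sign turned under scaling by library size only and when IP replicate 2 or Input replicate 3 was left out. The transcript of eif3s10 (the older name of the eIF3a gene) was at 2267, 1410 and 2653 in IP and 2592, 3460 and 3029 in input (-0.56 ± 0.30, adjusted p = 0.317). The core subunit gene eif3c was at 1108, 1038 and 1093 in IP, all below the 1182, 1236 and 1548 in input, yet by a small margin (-0.28 ± 0.25, adjusted p = 0.571). The groups overlapped for eif3ea, at 496 to 790 in IP and 772 to 1262 in input, and for eif3s6ip, at 243 to 406 and 318 to 561.

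Transcripts of eIF3j, a loosely bound subunit, held the lowest estimates of all members. That of eif3jb (ENSDARG00000053370) was at 70.2, 22.6 and 86.9 normalized counts in IP and at 230, 202 and 138 in input, a difference of -1.75 ± 0.52 (adjusted p = 0.0708, or 0.0332 with the replicate block). That of eif3ja (ENSDARG00000012603) was at 803, 63.9 and 936 in IP and at 1032, 1243 and 1388 in input, a difference of -1.71 ± 0.92 (adjusted p = 0.342). Both were lower in every IP library than in every input library, and both were lowest in IP replicate 2, where the values rest on 6 reads of eif3jb and 17 of eif3ja. Without that library the estimates were -1.21 for eif3jb (adjusted p = 0.0797) and -0.48 for eif3ja (adjusted p = 0.245).

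The eIF4 group joins the mRNA to the ribosome and had 19 members. Of these, 1 was called higher (5.26%, against 4.46% of all genes tested) and 1 lower (5.26%, against 1.86%). Of the cap-binding eIF4E family, 0 of 7 were called. The transcript of eif4e1c was at 2408, 1948 and 1673 normalized counts in IP and 2064, 1343 and 1604 in input, and that of eif4e1b, the germline form in zebrafish, was at 125, 86.5 and 154 in IP and 152, 72.8 and 121 in input. Both overlapped, as did eif4eb (639 to 1044 in IP, 704 to 942 in input) and eif4e2rs1 (259 to 396 and 184 to 400). The scarce transcript of eif4ea was higher in every IP library, at 25.7, 15.0 and 22.9 against 6.7, 5.1 and 4.8 in input, on 4 reads in IP replicate 2 (1.38 ± 0.67, adjusted p = 0.272). The transcript of eif4e2, which encodes a cap-binding repressor, was at 106, 71.4 and 151 in IP and 284, 145 and 233 in input, where the groups just overlapped. That of eif4e3 was at 751, 180 and 475 in IP and 875, 762 and 811 in input, below in every IP library (-1.01 ± 0.45, adjusted p = 0.231), and the estimate was -0.45 without IP replicate 2.

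eIF4E-binding proteins block the contact of eIF4E with eIF4G. The 3 of their genes that were tested had estimates below 0, against 50.4% of all genes tested, and 0 were called. Another, eif4ebp3, lay below the abundance minimum, with means of 4.37 normalized counts in IP and 4.43 in input. The transcript of eif4ebp3l (ENSDARG00000041607) was at 57.0, 192 and 136 normalized counts in IP and at 268, 345 and 329 in input (-1.41 ± 0.44, adjusted p = 0.0857, or 0.0279 with the replicate block). That of eif4ebp2 was at 663, 677 and 550 in IP and 1298, 1004 and 903 in input, also without overlap (-0.75 ± 0.26, adjusted p = 0.126). That of eif4ebp1 overlapped, at 2575, 4632 and 2308 in IP and 3787, 3857 and 3157 in input.

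The 3 members named as eIF4G family genes all lay below input. The transcripts of eif4g2a (3740, 4136 and 5105 normalized counts in IP, 5619, 5760.2 and 5937 in input), eif4g2b (3032, 3278 and 3140 in IP, 4270, 4777 and 5064 in input) and eif4g3b (1929, 1891 and 1906 in IP, 2346, 2810 and 2553 in input) were each lower in every IP library than in every input library. Of all genes tested, 12.9% were separated in this way. The estimates of these 3 genes were small, -0.43 ± 0.25, -0.57 ± 0.24 and -0.42 ± 0.24 in that order, and none was called (adjusted p = 0.379, 0.204 and 0.346). With the replicate block 0 of the 3 were called either.

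The eIF4A helicase family, with 3 members, held 1 of the higher calls, where 4.46% of all genes tested were called higher. The transcript of eif4a3 (ENSDARG00000014472), which encodes a core protein of the exon junction complex rather than an initiation helicase, was at 1874, 1647 and 1227 normalized counts in IP and at 814, 800 and 708 in input. It rose 2.01-fold (log2 fold change 1.01 ± 0.26, adjusted p = 0.0469), with no overlap between the groups. The transcript of the initiation helicase gene eif4a1b was at 564, 778 and 860 in IP and 1345, 1209 and 1097 in input, below in every IP library and not called (-0.74 ± 0.27, adjusted p = 0.132). The row named eif4a1a, whose identifier the table of gene names pairs with senp3b, was at 600 to 912 in IP and 464 to 927 in input, and whether its reads belong to eif4a1a is uncertain. The log2 ratio of eif4a3 to eif4a1b was 1.73, 1.08 and 0.51 in IP and -0.72, -0.59 and -0.63 in input (exact permutation p = 0.1, or 0.25 adjusted over 15 pairs). Its separation likewise follows from those of eif4a3 and eif4a1b, which lay on opposite sides of input.

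Of 3 cofactor genes of eIF4A, 1 was called lower, where 1.86% of all genes tested were called lower. The transcript of eif4h (ENSDARG00000042252), which encodes an RNA-binding stimulator of eIF4A, was at 133, 222 and 169 normalized counts in IP and at 523, 540 and 381 in input. It fell 2.74-fold (-1.45 ± 0.33, adjusted p = 0.0255), and the groups lay far apart. The paralogs of eif4h's partner eIF4B overlapped between the groups, with eif4ba at 258 to 323 in IP and 309 to 540 in input and eif4bb at 1010 to 1451 in IP and 1297 to 1851 in input.

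The eIF5 group held factors of different steps. eIF5A, which carries the modified amino acid hypusine and helps elongation and termination, is encoded by eif5a and eif5a2. The transcript of eif5a2 (ENSDARG00000056186) was at 1406, 1940 and 1623 normalized counts in IP and at 3745, 2810 and 3715 in input, a 2.06-fold fall (-1.05 ± 0.26, adjusted p = 0.0395). That of eif5a was at 1556, 1981 and 2267 in IP and 3154, 3148 and 3913 in input, just as well separated, and not called (-0.82 ± 0.26, adjusted p = 0.0898). The log2 ratio of eif5a to eif5a2 overlapped between the groups (exact permutation p = 0.5), so the fall was not shown to differ between the paralogs. The transcript of eif5, the GTPase activator of eIF2, was at 400, 504 and 436 in IP and 784, 687 and 558 in input (-0.59 ± 0.27, adjusted p = 0.248).

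The transcript of eif5b (ENSDARG00000016548), the subunit-joining GTPase, differed widely between IP libraries. It was at 3697, 376 and 5582 normalized counts in IP, where replicate 2 rests on 100 reads, and at 1506, 1974 and 2255 in input. IP replicates 1 and 3 lay above all input libraries and replicate 2 below all of them, so the estimate over all libraries was 0.07 ± 0.90 (adjusted p = 0.979). Without IP replicate 2 it was 1.27 (adjusted p = 0.00782). IP replicate 2 was the lowest IP library for 21 of the 65 members (32.3%, against 38.9% of all genes tested), so it did not lie low for the members as a whole.

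**Figure D3:**
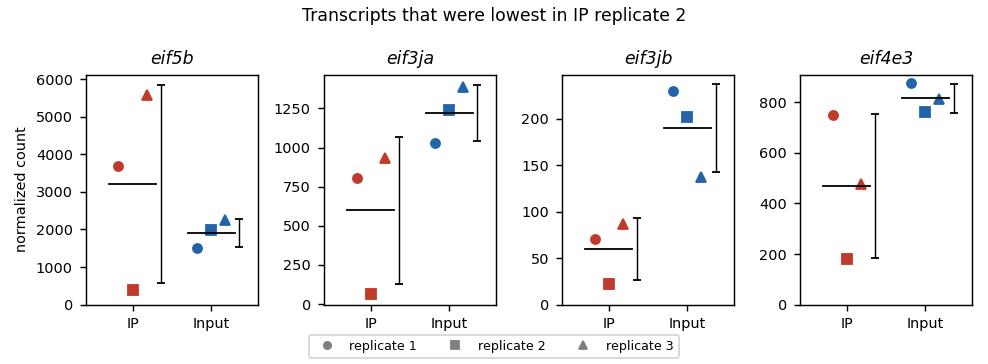
Normalized counts of eif5b, eif3ja, eif3jb and eif4e3 in each library, IP left and input right, with the mean (line) and SD (bar) of 3 libraries. In all 4 the square, replicate 2, is the lowest IP value, at 376, 63.9, 22.6 and 180 normalized counts.

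The single eIF6 gene gave the clearest increase. eIF6 binds the large ribosomal subunit, acts in its assembly and keeps it from joining the small one early. The transcript of eif6 (ENSDARG00000020232) was at 787, 771 and 639 normalized counts in IP and at 305, 343 and 342 in input. It rose 2.20-fold (1.14 ± 0.27, adjusted p = 0.0297), every IP library was above every input library, and the differences within pairs were 1.36, 1.16 and 0.90.

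Elongation factor eEF1 consists of eEF1A and its exchange factor, made of the beta, delta and gamma subunits. The transcript of eef1a1l1 (ENSDARG00000020850), an eEF1A gene, was at 4648, 5486 and 4614 normalized counts in IP and at 10517, 9973 and 12422 in input. It fell 2.23-fold (-1.16 ± 0.26, adjusted p = 0.0248), with no overlap between the groups. With the replicate block it was called by limma (adjusted p = 0.0399) and not by edgeR (adjusted p = 0.052). Near-identical eEF1A copies may share reads with it, and the one such copy among the members, eef1a1b, was at 25.0, 0 and 1.2 in IP and 50.4, 0 and 0 in input. Of the exchange factor, the beta subunit gene eef1b2 was at 3706, 4452 and 4873 in IP and 5889, 6433 and 11413 in input (-0.81 ± 0.31, adjusted p = 0.16). The delta subunit gene eef1da was at 297, 301 and 446 in IP and 616, 595 and 903 in input (-1.01 ± 0.31, adjusted p = 0.0767, or 0.0375 with the replicate block). Neither overlapped, whereas the other delta gene, eef1db, was at 107, 293 and 139 in IP and 196, 155 and 132 in input (0.04 ± 0.43, adjusted p = 0.976, with a sign that turned under scaling by library size only, in edgeR with the replicate block and when IP replicate 2 or Input replicate 3 was left out), and the gamma subunit gene eef1g was at 399 to 622 in IP and 506 to 970 in input.

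The eEF2 group had 0 of 4 members called. The IP and input ranges of normalized counts overlapped for each member. The group's share of all reads did not overlap, but it is scaled by total reads, so it is not on the same scale as the normalized counts. The transcript of eef2b, an eEF2 gene, was at 5679, 9471 and 5819 in IP and at 9269, 8928 and 12571 in input (-0.58 ± 0.30, adjusted p = 0.312). IP replicate 2 lay among the input libraries, and without it the estimate was -0.82 (adjusted p = 0.0477). The scarce transcript of eef2a.2 was at 17.4, 71.4 and 31.4 in IP and 6.7, 33.1 and 1.4 in input (1.58 ± 0.83, adjusted p = 0.314), and eef2a.1 was at 45.1 to 260 in IP and 104 to 273 in input. That of eef2k, the kinase that inhibits eEF2, was at 0.7, 0 and 4.8 in IP and 4.5, 0 and 76.4 in input, where 1 library set the estimate (-1.35 ± 1.14, adjusted p = 0.553).

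**Figure D4:**
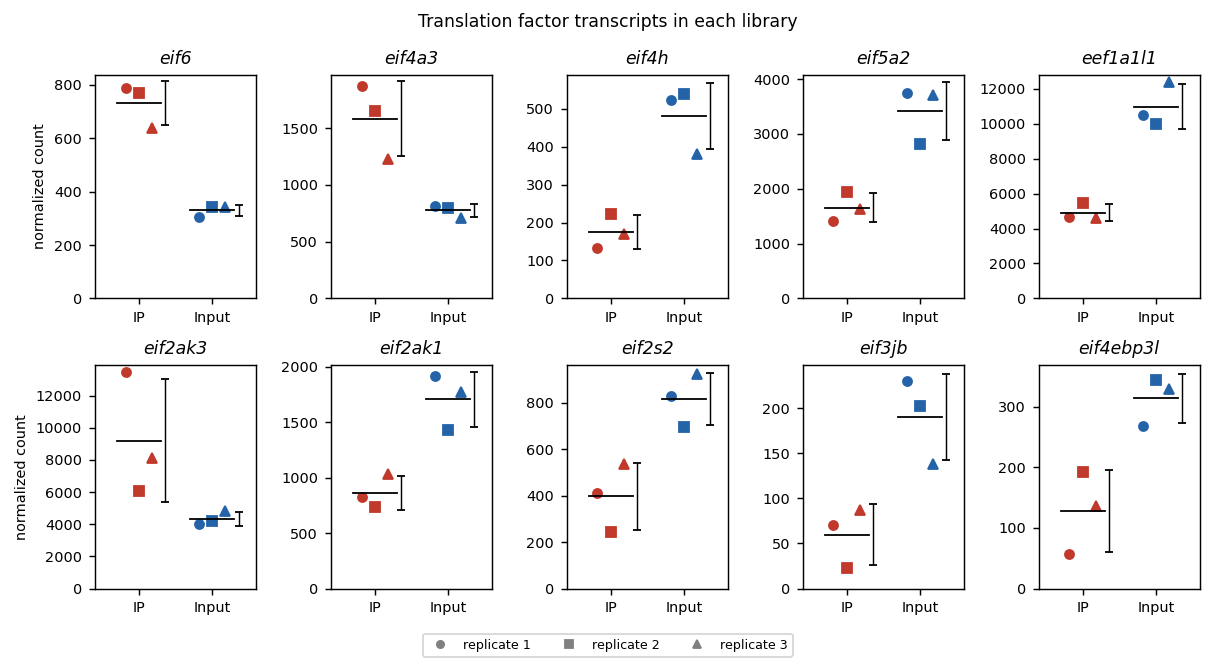
Normalized counts in each library, IP left and input right, for the 5 called transcripts (top row) and 5 that missed the threshold (bottom row), with the mean (line) and SD (bar) of 3 libraries. The groups do not overlap in any of the 10 panels, with eif6, eif4a3 and eif2ak3 higher in IP and the other 7 lower. The bottom row was selected from the 60 members not called and does not stand for them: the groups overlapped for 40 of the 65 members.

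With any 1 input library left out, 0 members were called (adjusted p of the 5 from 0.0734 to 0.188), while over all genes the calls fell to between 170 and 239 higher and between 10 and 34 lower. The estimates there were 1.08 to 1.17 for eif6, 0.95 to 1.05 for eif4a3, -1.61 to -1.36 for eif4h, -1.18 to -0.98 for eif5a2 and -1.22 to -1.06 for eef1a1l1. Without IP replicate 1 the call of eef1a1l1 alone was left (adjusted p = 0.0471). Without IP replicate 3, eif4h (adjusted p = 0.0548) and eif5a2 (adjusted p = 0.0633) were not called. In that fit eif2ak1 and eif2s2 were called lower instead (adjusted p = 0.0466 for each), which gave 2 members higher and 3 lower. Over all genes tested, 636 were higher and 173 lower there. Without IP replicate 2, 4 members were higher, with eif2ak3 and eif5b added. There were 7 lower, with eef2b, eif2ak1, eif4ebp3l and eif5a added, against 8.93% higher and 4.12% lower of all genes tested.

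The 10 rows below the abundance minimum gave no test. They included eef1a1a, eef1a2, eef2l2, eif3bb, eif3eb, eif4a2, eif4ebp3, both rows of eif2b1 and a second row named eif3hb. Of these eif3bb was at 0 in all libraries, and the highest mean over all libraries was 9.4 normalized counts. The transcript of eif3eb averaged 9.17 in IP and 2.47 in input, and that of eef1a2 averaged 2.27 in IP and 13.8 in input, where replicate 1 alone held reads.

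Lists of other translation genes are given by their counts and medians. Of 19 cytosolic aminoacyl-tRNA synthetase genes, which charge tRNAs, 1 was called higher (5.26%, against 4.46% of all genes tested) and 0 lower (against 1.86%). The list's median was 0.03 on the log2 scale. The one called was vars, the valyl-tRNA synthetase gene, at 1015, 846 and 789 normalized counts in IP and 480, 435 and 327 in input (1.10 ± 0.28, adjusted p = 0.0407). Of 9 mitochondrial translation factor genes 0 were called, with a median of 0.41 and 7 of 9 estimates above 0; gfm2, a gene of mitochondrial ribosome recycling (0.99 ± 0.36, adjusted p = 0.13), and gfm1, the mitochondrial translocation factor gene (0.63 ± 0.27, adjusted p = 0.211), had the smallest p. Medians of -0.26 for 5 release and recycling factor genes and of -0.22 for 7 genes of poly(A)-binding proteins and partners came with 0 calls in either list. In the first, abce1, which encodes the ATPase that splits ribosomes after termination, was at 2730, 1838 and 2230 in IP and 917, 1309 and 1176 in input (0.99 ± 0.27, adjusted p = 0.0548), and hbs1l was at -0.62 (adjusted p = 0.19). In the second, pabpn1 was at 0.72 (adjusted p = 0.186) and paip1 at -0.69 (adjusted p = 0.212).

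Among the 9 enzymes that make hypusine on eIF5A or diphthamide on eEF2, 0 were called and the median was 0.14, with wdr85 (0.56, adjusted p = 0.395) and the hypusine enzyme gene dhps (-0.59, adjusted p = 0.617) of smallest p. Among 16 genes of signalling to initiation, 0 were called and the median was 0.17, with tsc1b (-0.65, adjusted p = 0.141) and denr (-0.69, adjusted p = 0.229) of smallest p. For 76 genes named as cytosolic ribosomal proteins the median was -1.23, further below 0 than that of the factors. Of these genes, 29 were called lower (38.2%, against 1.86% of all genes tested) and 0 higher (against 4.46%). No test of the differences between these lists was run.

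**Figure D5:**
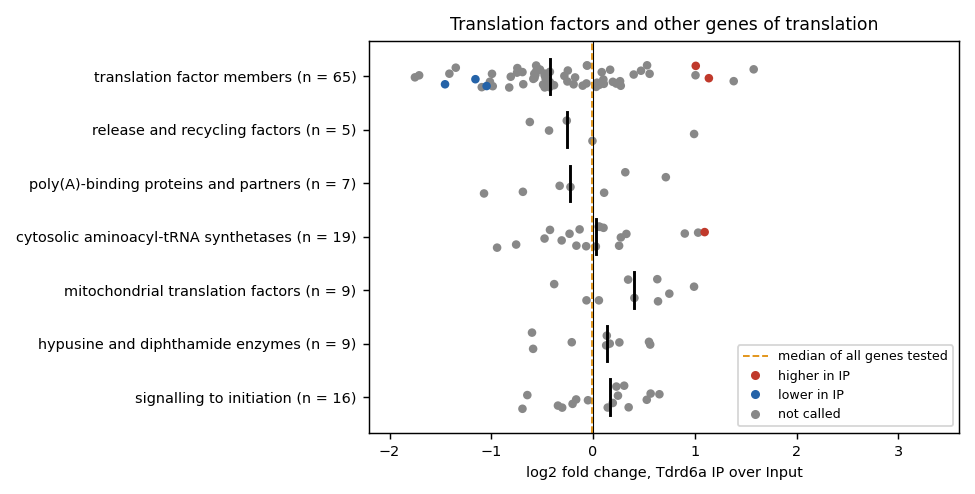
Log2 fold change, IP over input, of each tested gene in the translation factor group and in 6 other lists of translation genes, with a bar at each median and a dashed line at the median of all genes tested. Among the groups shown, the translation factors have the lowest median, -0.42, and the mitochondrial translation factors the highest, 0.41. The cytosolic ribosomal protein genes, with a lower median of -1.23, are not shown.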

How the data were processed

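Per the labels' protocols, Trizol-extracted RNA went into Ovation RNA-seq System V2 libraries that were read single-end on an Illumina HiSeq. TopHat, DESeq and the Zv9 assembly are named in the submitters' processing notes; their versions, the counter, the annotation and the strand setting are not given in the sources, so overlapping genes and near-identical copies may share reads. The deposited signal is a normalized count with 1 decimal. Each library's values were whole multiples of the value of 1 read (at least 99.99% of values above 0 within 0.06), so whole reads were recovered; intervals of such reads would cover counting error only. Genes with a mean of at least 10 were tested with limma 3.58.1 (trend, robust; R 4.3.3) on log2(value + 4), group as the only term, two-sided, Benjamini-Hochberg adjusted over 13265 genes; the pseudocount understates changes of low genes. Called means an adjusted p under 0.05.

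Same-numbered libraries deviated together from their group means (correlations 0.294, 0.305 and 0.301; -0.210 to -0.0704 for other numbers), so the numbers in the titles were taken to pair the libraries, and a fit with replicate block was the alternative. No pair of replicates agreed within sampling noise (chi-square per degree of freedom 44.4 to 138). edgeR 4.0.16 and DESeq2 1.42.0 were run on the recovered reads; edgeR called 588 genes higher and 253 lower. Reads were also simulated over 13265 genes from the input means and the real depths, with the same fixed dispersion for every gene and library and no pairing. There limma recovered 16% of genes changed 2-fold, 94% at 4-fold, 96% at 8-fold and 100% at 32-fold, with 4 false calls among 13065 unchanged genes. The real libraries were paired and their noise was not matched, so these rates may not hold for them.

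Members and lists were chosen with earlier results of these data known. Members called, the extremes and the member of largest mean value in each complex, members whose groups did not overlap and members called under an alternative have their statistics given; other members have values only. Lists were matched by symbol, then by the table of gene names. No sequence is given, and lengths were not used, so levels were not compared between genes.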

Additional observations from a re-analysis of the deposited data

How the results depend on the processing

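Of 65 members, 47 kept the sign of their log2 fold change under all 16 alternatives; the other 18, none of them called, had estimates within 0.53 of 0. With 2 higher and 3 lower members reported, there were 0 higher with library size only, 1 higher with TMM scaling, 0 higher and 1 lower with no filter beyond 1 read, 3 higher and 9 lower with DESeq2, 8 lower in the blocked limma fit (replicate block) and 7 lower in the blocked edgeR fit. The members' median was -0.61 with library size only, where the median of all genes tested was at -0.18. Over all genes, with 591 higher and 247 lower reported, library size only gave 383 lower, no filter 101 lower, DESeq2 1063 higher and 564 lower, the replicate block 925 higher and 467 lower, and edgeR with the block 449 lower. Leaving out 1 library gave 0 to 4 members higher, 0 to 7 lower, a median of -0.43 to -0.33, and 170 to 1185 genes higher and 10 to 547 lower over all genes.

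Among the called members, library size only left eif6 and eif4a3 uncalled (adjusted p = 0.0815 and 0.105), eif4a3 not with TMM scaling (0.0521), eif6, eif4a3, eif4h and eif5a2 not with no filter (0.0553, 0.0857, 0.0519 and 0.0718) and eef1a1l1 not with edgeR and the block (0.052). Signs turned for eef1db (-0.14 with library size only, -0.0036 with edgeR and the block, -0.37 to 0.34 with 1 library left out), eif3hb (-0.063 with library size only, -0.24 to 0.43 with 1 left out) and eif5b (-0.11 with library size only, -0.67 to 1.27 with 1 left out). The cause was not tested. Members lower in every pair numbered 28 of 65 (43.1%, against 22.7% of all genes tested). Over pairs 1 and 3 alone they numbered 42 of 65, against 33.3% of all genes tested, an alternative chosen after seeing the data. The shallow IP replicate 2 limits scarce members: eif4ea and eif3jb rest on 4 and 6 reads there.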
